A study of Vitis vinifera with 6 samples.

Results

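The XLOC loci are 4392 of the 34369 probes other than controls on a grapevine (Vitis vinifera) Agilent array, or 12.8%. They were chosen as every probe whose locus name starts with XLOC, a choice that uses no measured value, and each of the 4392 loci had its own single probe. They were set beside the 29798 probes whose names start with VIT. Leaf RNA of the cultivar Syrah, BVRC12 clone, was labelled with Cy3 and hybridised to 1 array per sample. The control group had 3 samples of fully expanded leaves from control plants, and the other group had 3 samples of fully expanded leaves labelled CARPO overexpression, from stably transformed plants. All plants were raised in a greenhouse and went back to calli grown from anthers. The promoter of the transgene, the number of transgenic lines behind the 3 samples and what the control plants carry are not given in the sources used here. CARPO belongs to the NAC family of plant transcription factors, and the question was what its overexpression does to the leaf transcriptome.

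VIT names are the identifiers of a gene prediction made on the grapevine reference genome. XLOC names are the kind of identifier that transcript assemblers give to loci rebuilt from sequenced RNA, and here they mark loci outside that prediction. In general such loci can be protein-coding genes that a prediction missed, long noncoding RNAs, antisense transcripts, or pieces of untranslated regions and of incompletely spliced RNA. Which of these a given XLOC locus is was not known here, because neither the files nor the RefSeq gene table pair the names with a gene, a strand or a position. The names ran from XLOC_000010 to XLOC_021972, and no probe sequence was used here. For the same reason the leaf identity of the samples was not checked against marker genes.

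Several facts of the arrays bear on what follows. By the scan recorded in the headers, scan 1 held the first replicate of both labels, scan 2 held controls 2 and 3 beside the second replicate labelled overexpression, and scan 3 held the third replicate of that label by itself. By the slide barcodes in the headers, this last array was also alone on its slide, and the other 5 arrays shared 1 slide. It stood apart from those 5 in both classes of probe. Its dimmest spot well above background had an intensity of 23.4, against 7.53 to 12.9 on the other arrays. The probe of VIT_08s0007g07670, which is CARPO by prior knowledge and not by any label or file, had an intensity of 10.1, 15.1 and 271 in labelled overexpression replicates 1, 2 and 3 and of 12.4, 50.4 and 25.3 in the controls. Its spot on control replicate 1 was not well above background. This 1 probe thus did not bear out the label of replicates 1 and 2, but whether the transgene carries the stretch it matches is not known here. The arrays are called labelled overexpression throughout, with every direction being that of the label.

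On each array most XLOC probes were not well above background in leaf, and far fewer of them than of the VIT probes were detected. A probe counts as detected where Feature Extraction marked its spot as well above background, out of the spots not marked as outliers. In controls, 40.2%, 41.4% and 39.9% of XLOC probes were detected on replicates 1, 2 and 3. On the arrays labelled overexpression the shares were 45.9%, 44.4% and 35.1%. Replicates 1 and 2 of that label thus lay above all 3 controls and replicate 3 lay below all 3, so that the groups overlapped. VIT probes were detected at 71.6% to 78.7%. The XLOC share was lower on 6 of 6 arrays, with a difference of -35.2 ± 1.53 percentage points (SD, n = 6; exact two-sided sign-flip permutation test over arrays, p = 0.03125, the smallest this test can give). Of the 153 negative control spots, which match no plant transcript by design, 0 to 4 were well above background on an array.

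**Figure D1:**
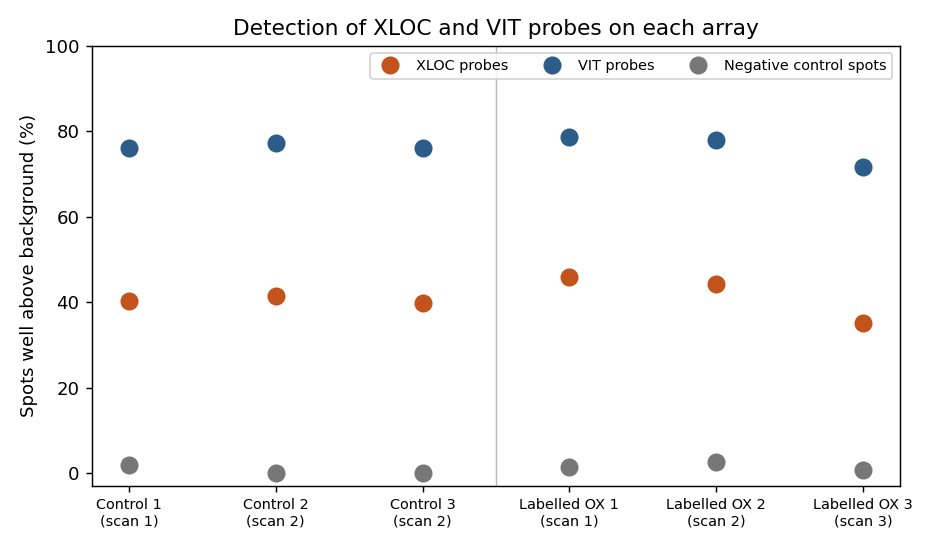
Share of spots well above background (vertical axis, %) on each of the 6 arrays, for XLOC probes, VIT probes and the 153 negative control spots. XLOC probes lie between 35.1% and 45.9%, VIT probes between 71.6% and 78.7%, and negative controls at 2.61% or less.

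The share of XLOC probes detected did not differ by label beyond the spread between arrays. Controls had a mean share of 40.5% ± 0.813 and the arrays labelled overexpression one of 41.8% ± 5.86 (SD, n = 3 per label), a difference of 1.28 percentage points (exact two-sided permutation test, p = 0.9, where 0.1 is the smallest possible). Within scans the array labelled overexpression was higher, by 5.69 points in scan 1 (1 array each) and by 3.72 in scan 2 (1 array against 2). The same values for VIT probes were 2.57 and 1.35. Leaving out labelled overexpression replicate 3 moved the XLOC difference to 4.64 points. Leaving out replicate 1 gave -0.78 and leaving out replicate 2 gave -0.011.

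Detection was mostly all or none. Of the 4363 XLOC probes with no outlier spot, 1840 (42.2%) were detected on no array and 1148 (26.3%) on all 6. Among 27306 such VIT probes the shares were reversed in order, with 15.8% on no array and 65.0% on all 6. Another 454 XLOC probes (10.4%) were detected on 1 array alone. Of these, 165 were detected only on labelled overexpression replicate 1 and 107 only on replicate 3, against 38 to 57 on each of the other 4 arrays. The same 2 arrays stood out at VIT probes, with 440 and 481 against 92 to 142. In the opposite direction, 253 XLOC probes (5.80%) were detected on every array but labelled overexpression replicate 3, against 7 to 30 missing from any other single array. Among VIT probes 1227 (4.49%) were missing from that array alone, against 27 to 154 from any other. The raised brightness at which spots of that array passed as well above background is given above, and its part in these 253 was not tested.

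**Figure D2:**
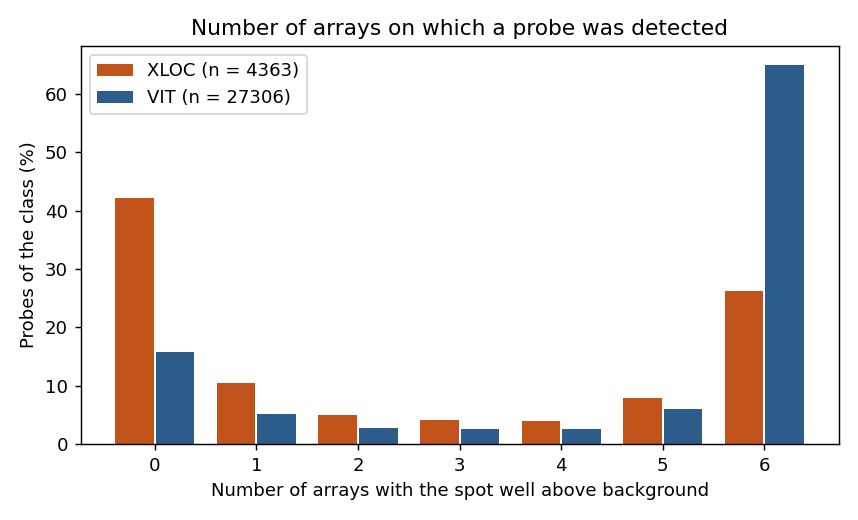
Percentage of XLOC probes (n = 4363) and VIT probes (n = 27306) without outlier spots, by the number of arrays, from 0 to 6, on which the spot was well above background. The XLOC bars are highest at 0 arrays (42.2%), the VIT bars at 6 arrays (65.0%).

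Levels are given as log2 of the processed intensity minus log2 of the array's 75th percentile, so that 0 is the 75th percentile of all probes and each unit is a doubling. Probe sequence also sets brightness, so the levels of the 2 classes describe this array design. The median level of all XLOC probes was -6.94 ± 0.459 (SD, n = 6 arrays), and that of VIT probes was -2.28 ± 0.0816. The difference of -4.67 ± 0.530 had the same sign on 6 of 6 arrays (exact two-sided sign-flip permutation test, p = 0.03125). The median XLOC spot was not well above background on any array, so that this difference is no fold of expression. Among detected probes alone the medians were -4.18 ± 0.411 and -1.01 ± 0.0800, a difference of -3.17 ± 0.432 (SD, n = 6; exact sign-flip permutation test, p = 0.03125).

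Few XLOC loci were bright. Between 69 and 81 XLOC probes an array exceeded the 75th percentile, or 1.57% to 1.85% of them, and 38 did so on all 6 arrays. For VIT probes 23.4% to 28.5% exceeded it on an array. The XLOC probes, 12.8% of all, held between 1.20% and 1.84% of the summed intensity of an array. Among the 1148 detected and unmarked on all 6 arrays, the mean level ran from -5.88 to 6.89, with a median of -3.36. For 17738 VIT probes chosen alike, the range was -5.86 to 7.94 and the median -0.88.

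The 3 XLOC loci of the highest mean level did not part the groups. XLOC_020970 had an intensity of 129063, 111077 and 98205 in control replicates 1, 2 and 3 and of 128480, 90089 and 100610 in the arrays labelled overexpression. This locus was among the 40 brightest of all probes on every array and made up 11.2% to 19.7% of the summed XLOC intensity. XLOC_002685 had 27900, 26598 and 17029 in controls and 24396, 66534 and 16968 in the arrays labelled overexpression, so that replicate 2 of the label was the highest of the 6. XLOC_006267 had 33218, 23562 and 26901 in controls and 21455, 31441 and 23832 in the others. In all 3 the groups overlapped, with limma differences of -0.08 (SE 0.40), 0.38 (SE 0.48) and -0.12 (SE 0.23) on the log2 scale and adjusted p-values of 0.939, 0.739 and 0.832.

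By label, few XLOC loci parted the groups. A probe was tested when it was detected on every usable array of at least 1 group, which 1590 of the 4392 XLOC probes were and 2802 were not. Of the 1590, 317 passed that filter through the controls alone and 112 through the arrays labelled overexpression alone (27.0% together). Missing the mark on 1 array was enough for this, as at the 253 XLOC probes missed only on labelled overexpression replicate 3. The filter thus favours probes that differ by label, but does not require a difference. With limma and Benjamini-Hochberg adjustment over all 23752 probes tested, 2 XLOC probes passed at an adjusted p under 0.05, both lower in the arrays labelled overexpression, beside 0.08% of all probes (0.0168% higher and 0.0632% lower). At an unadjusted p under 0.05 there were 138 XLOC probes (8.68%), 53 higher and 85 lower, where 15.1% of all probes tested lay under it (5.85% higher and 9.21% lower). With the filter set on all 6 arrays, which does not look at the label, 84 of 1161 XLOC probes lay under it (7.24%), and 15.2% of all. Without labelled overexpression replicate 3 the count was 199 (11.4% against 19.1% of all).

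Leaving out single arrays moved these counts. Without labelled overexpression replicate 2, 329 XLOC probes had an unadjusted p under 0.05 (19.6% against 20.6% of all), and without control replicate 2 or control replicate 3 there were 86 (5.37% against 10.2%) and 85 (5.21% against 8.86%). The 2 past the adjusted threshold became 0 without any 1 control or without labelled overexpression replicate 1, 7 without replicate 2 (0.417% against 0.522% of all) and 8 without replicate 3 (0.458% against 0.415%).

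Label differences of XLOC probes had a smaller median size than those of VIT probes of like level, which was not tested. The median log2 difference was 0.09 over the 1590 and 0.0038 over all tested, and the median size was 0.38 and 0.39. By mean level, from below -4 through -4 to -2 and -2 to 0 to above 0, the median size was 0.465, 0.350, 0.257 and 0.209 for XLOC probes. For VIT probes it was 0.642, 0.508, 0.358 and 0.293, and XLOC probes were mostly dim, where sizes are larger in both classes. A difference over 2-fold was fitted for 233 XLOC probes (14.7%), 116 higher and 117 lower, where 17.7% of all probes tested had one. The groups were fully apart at 203 of the 1577 XLOC probes with 6 usable spots (12.9%), 96 higher and 107 lower, where 24.2% of all did not overlap. These sizes and counts include probes that passed the filter through 1 group alone, 27.0% of XLOC and 9.76% of VIT probes tested. They are not given for the filter on all 6 arrays, and the part of such probes in them was not tested.

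The 2 loci past the threshold were well above background in all 3 controls and near background in the arrays labelled overexpression. XLOC_006678 was dim in controls too, with a mean level of -4.18, about the median of detected XLOC probes. XLOC_019261 had an intensity of 658, 706 and 925 in control replicates 1, 2 and 3 and of 2.82, 23.8 and 4.69 in labelled overexpression replicates 1, 2 and 3. Every control exceeded every array labelled overexpression by more than an order of magnitude, but of the latter only replicate 2 was well above background. The mean level was -0.28 ± 0.16 in controls and -7.07 ± 1.19 under the other label (SD over 3 arrays). With the spots of replicates 1 and 3 raised to the lowest level well above background on their arrays, a step added after the data were seen, it was at least 46.6-fold lower. The limma difference of -6.79 (SE 0.59, adjusted p 0.0313) takes those spots at their measured signal, and the locus entered the test through the controls alone.

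XLOC_006678 had 52.1, 41.7 and 60.0 in controls and 3.50, 10.8 and 4.97 in the arrays labelled overexpression. The groups again did not overlap, and replicate 2 of the label was again the only one of the 3 well above background. Mean levels were -4.18 ± 0.10 and -7.32 ± 0.42 (SD over 3 arrays), and with the spots of replicates 1 and 3 raised in the same way it was at least 4.07-fold lower. The limma difference of -3.14 (SE 0.27, adjusted p 0.0313) again takes those spots as measured, and this locus too entered the test through the controls alone. Both sizes moved with the background correction: with normexp the differences were -2.83 (limma adjusted p 0.524) for XLOC_019261 and -0.40 (limma adjusted p 0.994) for XLOC_006678. Over all alternatives their limma adjusted p-values ran from 0.00558 to 0.524 and from 0.0035 to 0.994. The lowest of each came from the deposited processed table, whose column of labelled overexpression replicate 3 followed from replicates 1 and 2. Without that column they were 0.0439 and 0.0375. Both loci missed the threshold when any 1 control or labelled overexpression replicate 1 was left out.

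No XLOC locus (0) was higher past the threshold, and the closest 2 by unadjusted p are given for their values. XLOC_012301 had an intensity of 106, 72.8 and 79.3 in controls and 804, 488 and 419 in labelled overexpression replicates 1, 2 and 3. It was well above background on all 6 arrays without overlap between groups, with mean levels of -3.43 ± 0.31 and -0.74 ± 0.88 (SD over 3 arrays). The limma difference was 2.70 (SE 0.47, adjusted p 0.106), with 3.37 within scan 1 and 2.26 within scan 2. XLOC_021550 had 4.44, 2.51 and 3.74 in controls, none of them well above background, and 12.1, 17.9 and 31.3 in the arrays labelled overexpression, all 3 well above it. Against the lowest signal well above background on the control arrays it was at least 1.82-fold higher. The limma difference of 2.46 (SE 0.38, adjusted p 0.092) takes the control spots at their measured signal. This locus entered the test through the arrays labelled overexpression alone. With normexp its difference was 0.40 (limma adjusted p 0.994).

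**Figure D3:**
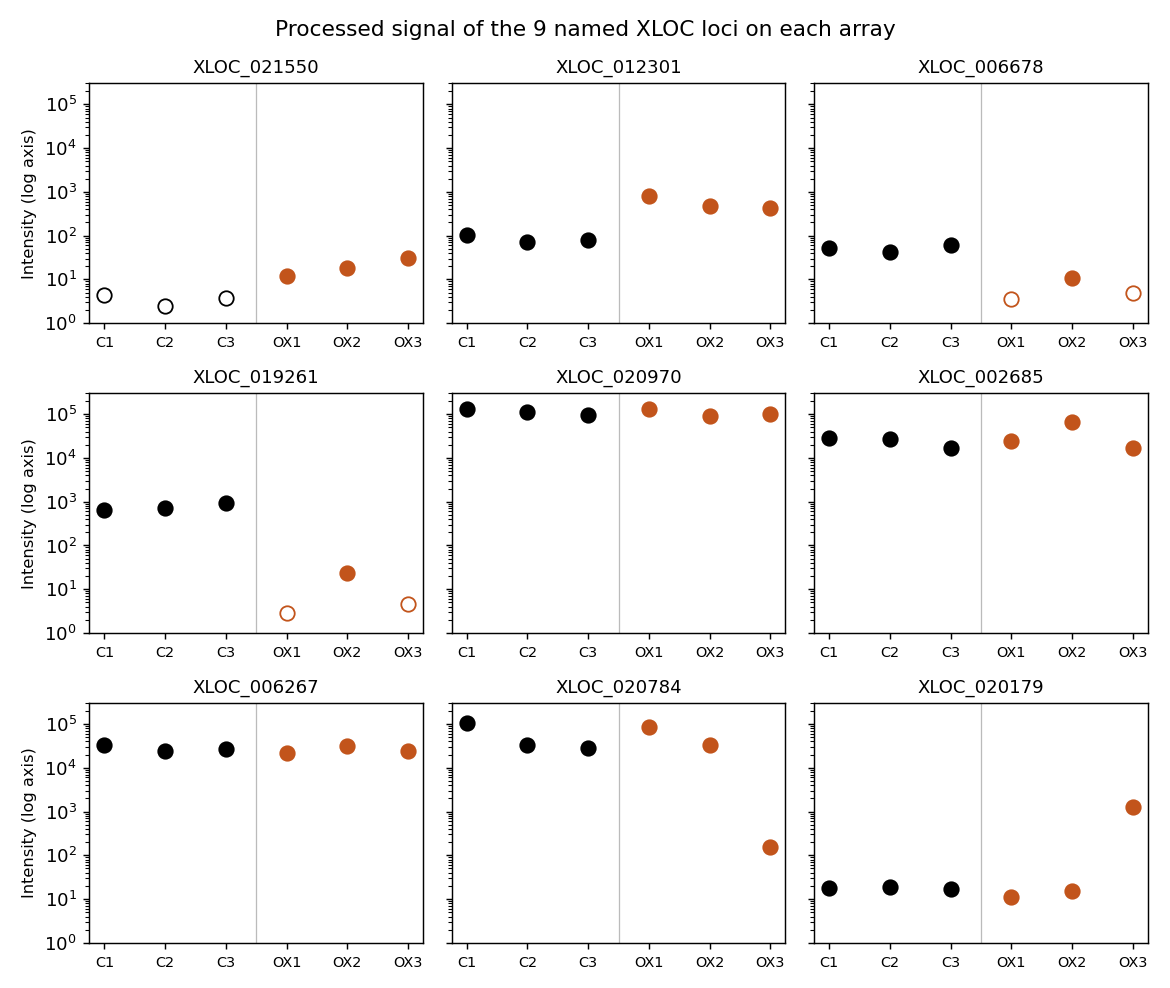
Processed intensity (log axis) of the 9 named XLOC loci in control replicates 1 to 3 (C, black) and labelled overexpression replicates 1 to 3 (OX, orange); open circles were not well above background. XLOC_019261 and XLOC_006678 drop towards background in the arrays labelled overexpression, XLOC_020970 stays between 90089 and 129063, and XLOC_020784 and XLOC_020179 part labelled overexpression replicate 3 from the other 5 arrays.

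Loci seen in 1 group alone were as rare among XLOC as on the whole array. In all, 19 XLOC probes were detected throughout 1 group and nowhere in the other (0.433%, where 0.436% of all probes were). Of these, 13 were seen in the arrays labelled overexpression, where they were at least 1.38-fold to at least 2.42-fold higher, and 6 in controls, where they were at least 1.45-fold to at least 4.76-fold higher. The lower bound exceeded 2-fold at 2 loci in each direction, and for the others it does not show how far the groups lay apart. Leaving out 1 array at a time gave 27 to 83 such loci, with 83 without labelled overexpression replicate 2, 48 without control replicate 1, 46 without labelled overexpression replicate 3, and 30 without control replicate 3 or labelled overexpression replicate 1. A group with fewer arrays meets this rule more easily at any probe. The share of all probes is not given for these settings, so the counts show nothing particular to XLOC loci.

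Over all levels XLOC probes had the larger spread between replicates, but in controls this did not hold among dim probes of like level. For the 1148 XLOC and 17738 VIT probes detected and unmarked on all 6 arrays, the median SD over 3 control replicates was 0.296 for XLOC and 0.233 for VIT on the log2 scale. The 3 arrays labelled overexpression gave 0.640 and 0.475. In controls the median SD at a mean level below -4 was 0.369 for 390 XLOC probes and 0.388 for 1606 VIT probes, and from -4 to -2 it was 0.284 for 486 and 0.302 for 4199. The XLOC value was thus the lower in the bins that hold most XLOC probes. From -2 to 0 it was 0.257 for 210 XLOC probes and 0.213 for 5796 VIT probes. Above 0 the control medians were 0.230 for 62 XLOC probes and 0.191 for 6137 VIT probes. Feature Extraction's own error of a detected spot differed little, with a median of 10.8% to 11.8% of the signal for XLOC and of at most 10.1% for VIT probes.

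At bright probes the classes lay closest, of the 3 pairs compared here, in the pair that shared a scan. For control replicates 2 and 3, both of scan 2, the median SD of the pair above level 0 was 0.160 for XLOC and 0.157 for VIT probes. For control replicates 1 and 2, of different scans, it was 0.195 and 0.129. For labelled overexpression replicates 1 and 2, also of different scans, it was 0.437 and 0.228. The XLOC probes thus had the larger spread in these pairs across scans. Below -4 the order of the pairs was another, with 0.482 for both classes in the labelled overexpression pair, 0.315 for XLOC and 0.309 for VIT probes in control replicates 1 and 2, and 0.211 and 0.256 in control replicates 2 and 3.

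**Figure D4:**
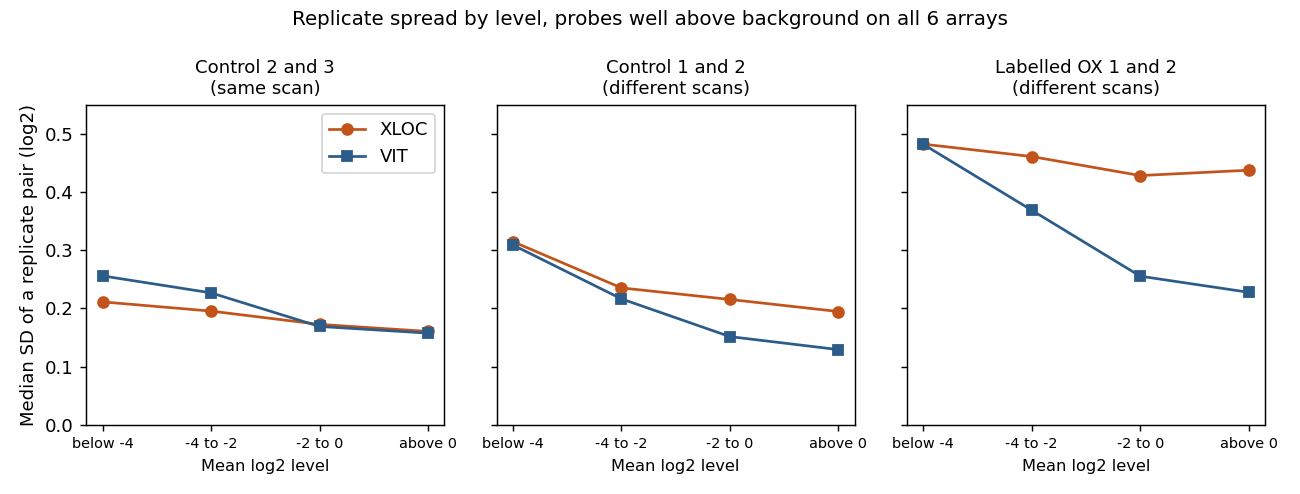
Median SD (log2) of 3 replicate pairs against the mean log2 level of the probe, for XLOC and VIT probes well above background on all 6 arrays. The classes nearly coincide above -2 for the pair of 1 scan (0.160 and 0.157 above 0) and part for pairs across scans (0.437 and 0.228 above 0 for labelled overexpression replicates 1 and 2).

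The correlations between arrays, which are across probes and described without a test, followed the same order. Over the 1148 XLOC probes, labelled overexpression replicate 1 had a Pearson's r of 0.920 with control replicate 1 of its own scan and of 0.869 with labelled overexpression replicate 2. Labelled overexpression replicate 2 had an r of 0.942 and 0.937 with control replicates 2 and 3 of its own scan. Over the 17738 VIT probes the first of these pairs also had an r of 0.920, but the 2 arrays of the label had 0.942. At XLOC probes the 4 pairs of a shared scan had an r of 0.920 to 0.963, while the 6 other pairs that leave out labelled overexpression replicate 3 had 0.848 to 0.933. VIT probes spread over a wider range of levels, which alone raises r.

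To set scan beside label, both were entered in 1 limma fit, in which labelled overexpression replicate 3 has a scan of its own and adds nothing. Both differences then rest on the same 5 arrays and have the same standard error by design. Over 1581 XLOC probes the median size of the scan difference was 0.424 on the log2 scale and that of the label difference was 0.251. Over 20184 VIT probes the order was the opposite, with 0.269 for scan and 0.336 for label. The scan difference was the larger of the 2 at 62.2% of XLOC probes and at 41.0% of VIT probes. It was over 2-fold at 17.3% of XLOC probes, 221 of them higher in scan 1 and 52 in scan 2, and at 8.49% of VIT probes.

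The contrast between the classes was also seen at bright probes. Above a level of 0 the scan and label differences had median sizes of 0.399 and 0.189 for 62 XLOC probes, and of 0.204 and 0.290 for 6387 VIT probes. At an unadjusted p under 0.05, scan parted 27.1% of XLOC probes and 13.5% of all, and label 15.5% and 21.6%. After adjustment no probe of either class passed for scan (0). For label, 2 of 1581 XLOC and 42 of 20184 VIT probes passed, beside 44 of all 21819 in this fit. Both arrays of scan 1 also carry replicate number 1, and the plants, extractions and labelling days behind the scans are not given here, so that what differed between scans cannot be told apart.

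**Figure D5:**
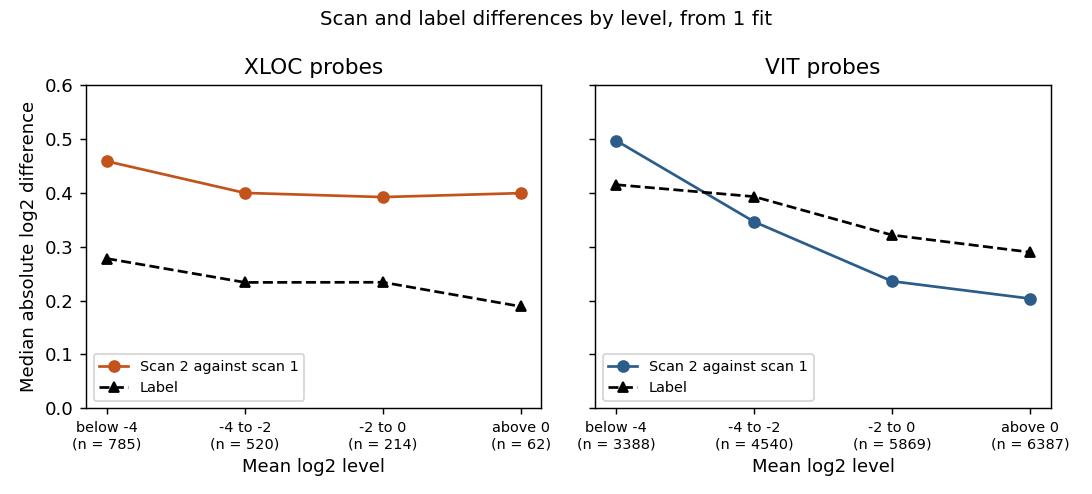
Median absolute log2 difference between scan 2 and scan 1 (solid) and between labels (dashed) from the same fit, by mean log2 level, for XLOC probes (left) and VIT probes (right). For XLOC probes the scan line lies above the label line at every level (0.399 and 0.189 above 0), and for VIT probes it lies below it above -4 (0.204 and 0.290 above 0).

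Labelled overexpression minus control could also be read once in each scan, from arrays that the scans do not share. At XLOC probes the 2 differences had the same sign at 52.5% of 1148 and an r of 0.346 across probes. At VIT probes the values were 67.5% of 17738 and 0.597. The share of XLOC probes with the same sign stayed between 50.3% and 54.3% at every level, against 60.1% to 69.3% for VIT probes. Still, 54 XLOC probes differed over 2-fold in both scans, and 46 of them did so in the same direction, 17 higher and 29 lower in the array labelled overexpression. These 46 are 4.01% of the 1148, and the same count was 7.18% among VIT probes.

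Labelled overexpression replicate 3 lay farthest from the rest at XLOC loci. Its level differed from the mean of the other 5 arrays over 2-fold at 36.1% of the 1148 XLOC probes, against 6.79% to 18.9% for the other arrays, and was the higher at 67.0%. At VIT probes it was the higher at 48.8% and differed over 2-fold at 29.8%. The distance exceeded 16-fold at 8 XLOC probes (0.697%), 6 of them higher, and at 196 VIT probes (1.105%), 136 of them higher. The median level of the 1148 was -3.02 on that array and -3.50 to -3.29 on the others, while the VIT medians lay between -0.88 and -0.84 on all 6. These probes had to be well above background on that array too, which 253 XLOC and 1227 VIT probes detected on every other array were not. Such a filter favours dim probes that are high there. Its part in the 67.0% and in the median of -3.02 was not tested.

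The locus at the largest distance was XLOC_020784, with an intensity of 104681, 33856 and 28739 in control replicates 1, 2 and 3, of 83752 and 32767 in labelled overexpression replicates 1 and 2, and of 152 in replicate 3. The arrays of scan 1 were the highest, those of scan 2 about 3.84-fold lower after scaling, and replicate 3 was 325-fold below the mean of the other 5. XLOC_020179 went the other way, with 17.9, 19.0 and 17.3 in controls, 11.1 and 15.1 in labelled overexpression replicates 1 and 2, and 1269 in replicate 3, a 79.3-fold distance. Both were well above background on all 6 arrays, and neither passed for label, with limma differences of -2.64 (SE 2.39, adjusted p 0.637) and 1.73 (SE 1.78, adjusted p 0.681). Leaf, plant, slide and scan of that array cannot be told apart, since no other array shared its scan or its slide.

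Label differences were more alike at XLOC loci with consecutive numbers than at loci with numbers farther apart, as a description without a test. Among tested loci, 282 pairs had numbers that differ by 1, and their limma differences had Spearman's rho of 0.308 (Pearson's r 0.395) across pairs. For numbers 2, 3, 4 and 5 apart, with 159 to 177 pairs each, rho was 0.111, 0.010, -0.004 and 0.035. At 11 of the 282 pairs both loci differed over 2-fold, and in all 11 in the same direction. Without labelled overexpression replicate 3, rho was 0.266 for 339 pairs of consecutive numbers and -0.04 to 0.134 for the others, and 9 of 9 such pairs shared a direction. Pearson's r was then 0.364 for consecutive numbers and 0.355 for numbers 2 apart, so that the order held for rho more than for r. The levels of consecutive loci had an r of 0.248. All pairs come from the same arrays, whether consecutive numbers lie next to each other in the genome is not stated in the files, and the comparison was chosen after the data were seen.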

How the data were processed

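The 6 scanner files hold deposited spot intensity values, extracted with Feature Extraction 10.5.1.1 on 1 colour, which per the file headers subtracted background on each array by itself. No scaling across arrays is recorded there. The same deposited files give other values: 0 or 1 marks for spots well above background, positive and significant, saturated or outlying. The header names the build as Genoscope 20070911, and no coordinates were used. Groups and replicate numbers came from sample titles. Log2 intensity minus log2 of the array's 75th percentile over all probes other than controls was compared with limma 3.58.1 in R 4.3.3, with no covariate. Spots marked as outliers were left out, and 2 usable spots a group were needed. No spot was saturated (0), and the number of arrays limits the precision. The fit was tested on simulated data. Named loci followed a rule: up to 2 each way by difference past the threshold and well above background on all 6 arrays, or else by smallest unadjusted p (all 4 came in this way, 2 of them past the threshold), 3 by level and 2 by the distance of labelled overexpression replicate 3. Members, lists and rules were chosen with earlier results of these data known. A deposited table of scaled intensity values, made in a way not stated, served as an alternative, beside background, scaling, filter, weight, block and leave-one-out settings. The scan fit, the scan-wise comparisons and the neighbour pairs were added after the data were seen.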

Additional observations from a re-analysis of the deposited data

How the results depend on the processing

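The 2 XLOC loci past the threshold became 0 with normexp (24 at an unadjusted p under 0.05), 0 without a filter on dim probes (206), 0 with the filter on all 6 arrays (84, both loci failing that filter), 1 with quantile normalization, 6 with array weights (0.377% against 0.518% of all probes) and 5 with slide as a block (0.314% against 0.291%). Median scaling and scan as a block gave 2 with 1 of the same loci, quantile normalization kept 0 of them, and keeping outlier spots kept both. With the replicate number as a block (replicate block) the count was 0 (145 unadjusted). Deviations of same-numbered arrays correlated at 0.221, 0.0229 and -0.0234, so the numbers were not taken as pairs. The processed table gave 116 (8.55% against 13.5% of all), but its column of labelled overexpression replicate 3 followed from the signals of replicates 1 and 2 at 100% of its XLOC probes (within 0.1%), and without that column, a setting added later, it gave 5 (0.369% against 0.408%). Leaving out 1 array gave 0 to 8. The median XLOC difference of 0.09 ran from 0.0068 (scan as a block) to 0.24 (normexp, with 0.13 over all probes), moving by less than the spread of array medians.

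The detection gap of -35.2 points was -21.5 with the positive and significant mark, which 60.9% to 71.8% of XLOC and 84.3% to 89.2% of VIT probes had on an array. It was -35.7 to -34.9 when 1 array was left out, where 0.0625 is the smallest p of the sign-flip permutation test. The level gap of -4.67 was -1.39 with normexp and -4.83 to -4.56 when 1 array was left out. The gap in replicate SD, 0.114, was 0.410 with normexp, whose offset is the same intensity on arrays of different 75th percentile, and 0.0759 (without labelled overexpression replicate 2) to 0.127 when 1 array was left out. The label difference in detection, 1.28 points, ran from -0.78 to 4.64, turning to -0.78 and -0.011 as reported, with the cause not tested. Loci seen in 1 group numbered 27 to 83 when 1 array was left out, where the rule is easier to meet at any probe. The share of XLOC probes with the larger scan difference was 60.3% to 66.1% in every setting run. XLOC_012301 passed only in the processed table (2.89, limma adjusted p 0.0142, where all its alternatives ran to 0.537). Without that table's column of labelled overexpression replicate 3 it did not pass (2.90, limma adjusted p 0.0783). Faint signal limits what can be said of the 42.2% of XLOC probes detected on no array.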

Other observations

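Spots that Feature Extraction marked as uneven or outlying were unevenly shared by the classes. On labelled overexpression replicate 3 they made up 0.775% of detected XLOC spots and 9.54% of detected VIT spots. The marks rose with brightness in both classes on that array. Between intensities of 1000 and 10000 they covered 9.09% of 77 XLOC spots and 23.0% of 7358 VIT spots, and under 100 they covered 0 of 851 and 1 of 4047. On control replicates 2 and 3 and labelled overexpression replicate 2 they were rare, with 2 or 3 XLOC spots and 13 to 19 VIT spots an array, too few to order the classes.

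The deposited processed table kept 1356 XLOC probes (30.9%) and 21659 VIT probes (72.7%). It held no probe of either class that was detected on none of the 6 arrays (0), and it lacked 88 XLOC probes that were well above background on all 6. XLOC loci therefore make up a smaller part of that table than of the array.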
